A study of Mus musculus with 4 samples.

Results

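The genes of the interferon response and of antigen presentation by major histocompatibility complex (MHC) class I were followed through the first step of mouse blood formation. The set was drawn up by name from known gene functions, with earlier results of these data known. A gene was measured where a probe set of the array was annotated with that gene alone. Of 44 listed genes, 40 had such a probe set, out of 18194 genes named on the array, and they were read by 70 probe sets. Isg15, Ifi44, Gbp4 and H2-T23 had none, so their RNA was not measured here. Promoters were searched for listed genes with or without a probe set. Hematopoietic stem cells (HSC), sorted as CD34(-)KSL cells, were set against multipotent progenitors (MPP), sorted as CD34(+)KSL cells. KSL names a gate for early blood cells set by several surface markers, among them c-Kit and the absence of lineage markers. Both came from C57BL/6 mice, with 2 biological replicates per group. The labels give no age, sex or treatment, and name no animals behind the replicates, so the p-values reflect the spread among these 4 samples, which may be partly technical. Each sample used the RNA of about 3000 cells, amplified in 2 cycles and read on an Affymetrix mouse expression array as probe set intensities in arbitrary units.

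Interferons are secreted signals of infection. Type I interferons bind the receptor chains Ifnar1 and Ifnar2 and interferon gamma binds Ifngr1 and Ifngr2. Janus kinases at these receptors activate STAT proteins, which enter the nucleus, in the type I pathway together with Irf9, and switch on antiviral genes at a promoter motif called the interferon-stimulated response element (ISRE). Class I molecules carry peptides from inside the cell to its surface, where T cells read them. Some interferon-stimulated genes are known to be expressed in stem cells without infection, and interferon is known to drive resting HSC into division.

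The sort showed in the RNA. All 3 markers listed for MPP (Cd34, Flt3 and Cd48) were lower in HSC, and 9 of 10 listed for HSC were higher, among them Slamf1 and Procr. The other, Hlf, had a log2 difference of 0.70 on its brightest probe set (adjusted p = 0.0518). A second Hlf probe set was called higher (1.84, adjusted p = 4.34e-04). Median intensity was 26.1 and 26.9 units in HSC and 21.996 and 21.3 in MPP. HSC replicate 2 had a 3' to 5' signal ratio for actin of 9.42, against 5.26 on HSC replicate 1 and 4.99 and 5.01 on the MPP arrays. The 27 control probe sets for Bacillus subtilis transcripts reached at most 16.9 and 16.7 units in HSC and 14.9 and 13.6 in MPP. These maxima are called the floor. Markers of plasmacytoid dendritic cells, which make much type I interferon, summed to 918 to 961 units in HSC and 951 to 1180 in MPP over 6 of 6 listed genes, and none of the 4 tested was called. Most of that sum was Tcf4, with 749 and 742 units in HSC. The defining marker Siglech was below the floor in HSC and on MPP replicate 1, and above it on MPP replicate 2 (17.3 units). Macrophage and dendritic markers summed to 754 to 914 units in HSC and 692 to 1013 in MPP over 11 of 11 listed genes. In that list H2-Aa, an MHC class II gene, was higher in HSC and Csf1r, the macrophage growth factor receptor, lower. T, B and NK cell markers summed to 129 to 141 units in HSC and 382 to 429 in MPP over 8 of 10 listed genes, a gap that lay mainly in Nkg7. Endothelial markers summed to 280 to 284 units in HSC and 147 to 159 in MPP over 6 of 6 listed genes, and erythroid markers to 212 to 252 units in HSC and 69.0 to 76.8 in MPP over 4 of 6. Signals over the floor in both replicates were seen for 9 macrophage and dendritic markers in HSC and 8 in MPP, for 3 plasmacytoid markers in HSC and 4 in MPP, for 3 endothelial markers in either group, and for 2 T, B and NK and 2 erythroid markers in either group. The part of other cells in the differences was not tested, and in such bulk samples fewer expressing cells and less RNA per cell cannot be told apart.

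Interferon-induced effectors and the regulators Irf2 and Irf7 made up the members that were higher in HSC, and no class I presentation gene was called higher. A gene was represented by its brightest tested probe set and called at a limma adjusted p under 0.05 (Benjamini-Hochberg over 27022 probe sets). Of 39 members tested, 12 rose in HSC (30.8%), where 7.71% of all 12382 tested genes did. Another 2 members fell (5.13%), where 5.9% of all genes did. Both HSC arrays lay above both MPP arrays for 23 members (59.0%), against 35.3% of all genes, and below them for 4 members (10.3%), against 23.4% of all genes. Since the list was chosen with earlier results of these data known, these shares describe the members and test nothing. The median log2 difference was 0.49 over the members and 0.10 over all tested genes. With the array medians made equal these were 0.26 over the members and -0.14 over all tested genes. The members that rose were Ifit1, Ifit3, Oasl2, Rsad2, Gbp2, Gbp6, Igtp, Iigp1, Ifitm1, Ifitm3, Irf2 and Irf7, and those that fell were Ifnar2 and Tap2. The calls leaned on MPP replicate 1: without it 3 members were called higher (7.69%, against 5.25% of all genes), namely Gbp2, Ifitm1 and Iigp1, and none lower, by limma, with 12 and 2 at an unadjusted p under 0.05. With the array medians made equal, Gbp2, Ifitm1, Ifitm3, Igtp, Iigp1 and Rsad2 were called higher (15.4%, against 5.01% of all genes). In that fit 2 members were called lower (5.13%, against 10.9% of all genes). The same 6 were called higher with no filter on dim probe sets (15%, against 3.16% of all genes). With a prior variance that ignores mean level, Ifitm1 was the 1 member called higher (2.56%, against 3.07% of all genes).

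**Figure D1:**
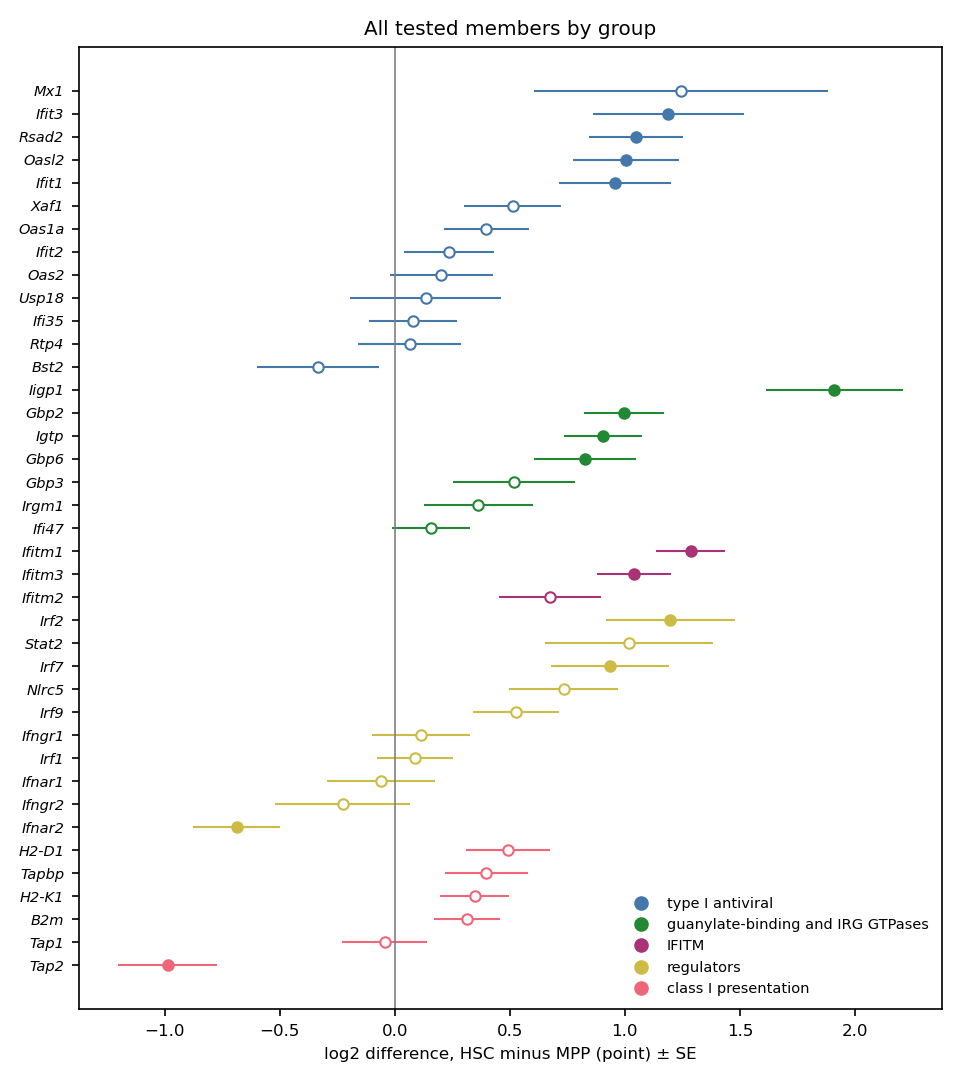
Log2 difference, HSC minus MPP, with its SE (n = 2 arrays per group) for the 39 tested members, coloured by group. Filled points passed the adjusted p threshold and open points did not. 33 of 39 points lie above 0, and the points furthest below 0 are Tap2 and Ifnar2.

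**Figure D2:**
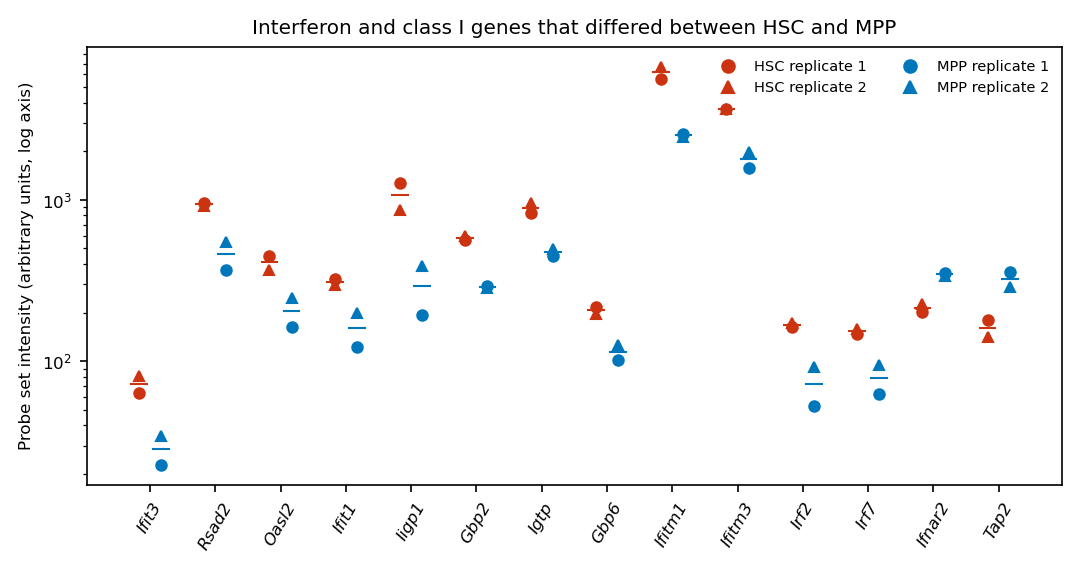
Probe set intensity in arbitrary units, on a log axis, of the 14 members that were called, with HSC left of MPP for each gene. Circles are replicate 1, triangles replicate 2 and lines the mean of both. HSC arrays lie above MPP arrays for 12 genes and below them for Ifnar2 and Tap2. Levels of different genes cannot be compared, since each probe set has its own scale.

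The ISRE, where the factors switched on by interferon bind, was looked for in the promoters of the members. RefSeq promoter windows (GRCm38.p6, 250 bases before to 50 after each gene's start) were found for 34 of the 44 listed genes and searched on both strands for the ISRE core, which is 2 copies of GAAA with any 2 bases between them. It was present for 16 of the 34 genes (47.1%), against 3.99% of all 27025 genes with a window. By group these were 6 of 11 type I antiviral genes, 4 of 5 guanylate-binding and IRG GTPases, both Ifitm2 and Ifitm3 of 3 IFITM genes, 2 of 9 regulators (Irf2 and Stat2) and 2 of 6 class I genes (B2m and H2-T23). Isg15 and H2-T23, counted here, had no probe set of their own. The members were listed as known interferon-response and class I genes, which favours a high share from the start. Of the 12 members that rose in HSC, 10 had a window and 7 of these held the motif. Of the 27 other tested members, 21 had a window and 7 held it. These 2 sets differ in their mix of groups, and a link between the motif and the rise was not tested. The gamma-activated site TTCNNNGAA, to which STAT dimers bind, was in 10 of 34 member promoters (29.4%), against 9.55% of all genes. Matches of these motifs can overlap with each other, and a match is a string of letters, not a measured binding site.

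**Figure D3:**
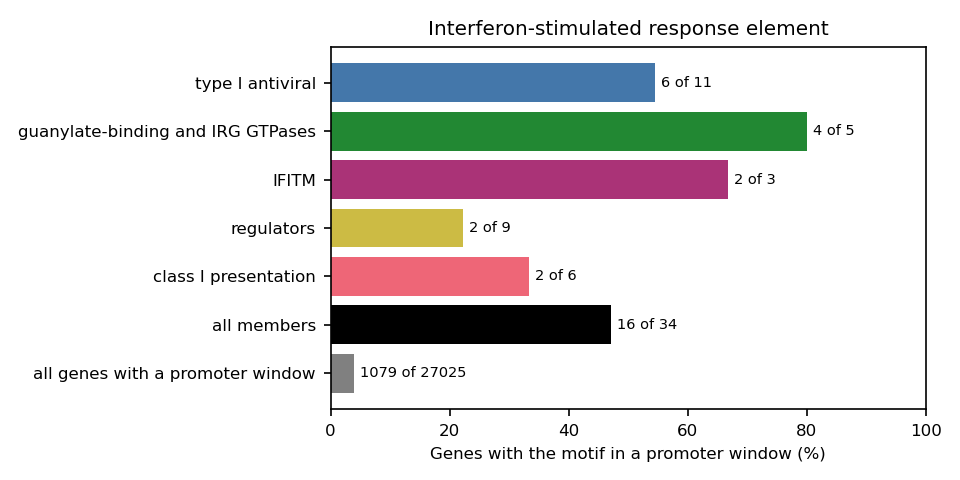
Percent of genes whose promoter window holds the ISRE core, for the 5 groups of members, all members and all genes with a window. Labels give the number of genes with the motif of those with a window. The share is 47.1% over the members and 3.99% over all genes.

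Printed here are the motif matches, in capitals, with up to 20 bases on either side, for the 7 members that rose in HSC and held the motif. Where the motif lies on the other strand, its copies read TTTC. They show how the matches differ in number and place: Ifit1 and Ifit3 each had 2, Igtp had 1 at 34 bases before the start, and in Ifitm3 both lay after the start, the nearer at base 3.
Ifit1, chr19:34640765-34640833, plus strand: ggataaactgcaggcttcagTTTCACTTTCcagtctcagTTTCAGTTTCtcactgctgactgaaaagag
Ifit3, chr19:34583353-34583436, plus strand: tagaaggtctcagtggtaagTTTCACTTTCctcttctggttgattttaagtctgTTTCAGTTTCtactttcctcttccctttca
Rsad2, chr12:26456543-26456592, minus strand: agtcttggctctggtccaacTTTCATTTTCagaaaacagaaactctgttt
Gbp2, chr3:142620584-142620633, plus strand: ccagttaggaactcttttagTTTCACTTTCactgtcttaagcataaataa
Igtp, chr11:58199502-58199551, plus strand: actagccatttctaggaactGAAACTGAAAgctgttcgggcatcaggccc
Ifitm3, chr7:141010696-141010762, minus strand: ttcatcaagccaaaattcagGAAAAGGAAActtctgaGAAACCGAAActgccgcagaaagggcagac
Irf2, chr8:46739495-46739533, plus strand: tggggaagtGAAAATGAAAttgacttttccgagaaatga
Members that were tested without a call also held it, and the following are shown for contrast.
Ifitm2, chr7:140955978-140956027, minus strand: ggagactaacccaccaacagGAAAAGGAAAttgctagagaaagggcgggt
Oas1a, chr5:120907510-120907565, minus strand: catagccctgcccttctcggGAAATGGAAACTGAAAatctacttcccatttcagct
Irgm1, chr11:48871415-48871470, minus strand: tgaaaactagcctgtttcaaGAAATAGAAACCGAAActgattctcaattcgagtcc
B2m, chr2:122147528-122147577, plus strand: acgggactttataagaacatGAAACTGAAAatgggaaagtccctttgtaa

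Among the type I antiviral genes, 4 of 13 tested rose in HSC (30.8%, against 7.71% of all genes) and none fell (against 5.9%). At an unadjusted p under 0.05 in limma these counts were 5 and none. The median log2 difference was 0.40. Ifit1, an effector that binds viral RNA, had 322 and 297 units in HSC, against 122 and 199.7 in MPP (log2 difference 0.96, SE 0.24, adjusted p = 0.0314). Ifit3, which acts with Ifit1, had 63.3 and 81.0 units in HSC, against 22.6 and 34.5 in MPP (log2 difference 1.19, SE 0.33, adjusted p = 0.0429). In both genes the HSC arrays lay above the MPP arrays, and MPP replicate 1 was the lowest array. Oasl2, related to the oligoadenylate synthetases that sense double-stranded RNA, had 452 and 369 units in HSC, against 163 and 246 in MPP and was 2.01-fold higher (log2 difference 1.01, SE 0.23, adjusted p = 0.0191). Rsad2, or viperin, an enzyme that makes a chain terminator of viral RNA synthesis, had 954 and 919.7 units in HSC, against 369 and 549 in MPP (log2 difference 1.05, SE 0.20, adjusted p = 0.00844). The groups were apart on both other Rsad2 probe sets too. On the first the values were 261 and 249.7 units in HSC, against 57.7 and 127 in MPP (adjusted p = 0.0117) and on the dimmest they were 29.6 and 23.1 units in HSC, against 15.6 and 16.6 in MPP (adjusted p = 0.464). The call of Ifit3 also ended after quantile normalization (log2 difference 0.99, adjusted p = 0.0896), without HSC replicate 2 (1.03, adjusted p = 0.132) and without MPP replicate 2 (1.44, adjusted p = 0.0534).

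The other antiviral genes were not called. Xaf1, a cofactor of cell death, had 307 and 413 units in HSC, against 227 and 271 in MPP (log2 difference 0.51, SE 0.21, adjusted p = 0.164), with both HSC arrays above both MPP arrays. Oas1a, an oligoadenylate synthetase, had 533 and 586 units in HSC, against 375 and 476 in MPP (log2 difference 0.40, SE 0.19, adjusted p = 0.22), again with the groups apart. Xaf1 was called when HSC replicate 1 was left out (0.72, adjusted p = 0.0382). Ifit2 had a log2 difference of 0.24 and its arrays did not overlap either. For Oas2 (0.20), Usp18 (0.13), Ifi35 (0.08), Rtp4 (0.06) and Mx1 (1.24) the groups overlapped. Mx1 was called when MPP replicate 2 was left out (2.53, adjusted p = 0.00161), and without MPP replicate 1 its difference was -0.041. Usp18 removes the Isg15 protein from its targets and damps the type I receptor. Bst2, or tetherin, which holds budding virus at the cell surface, was the antiviral gene with a negative difference (-0.33, adjusted p = 0.482). Its HSC arrays, at 60.03 and 61.8 units, lay below both MPP arrays, at 72.1 and 85.2. Mx2 was below the floor on all 4 arrays and was not tested.

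The guanylate-binding proteins and immunity-related (IRG) GTPases attack the vacuoles in which bacteria and parasites live, and they answer mainly to interferon gamma. Of 7 tested, 4 rose in HSC (57.1%, against 7.71% of all genes) and none fell (against 5.9%). At an unadjusted p under 0.05 in limma these counts were 4 and none. The median log2 difference was 0.83. Iigp1, an IRG GTPase, had the largest difference of all members. On its brighter probe set it had 1272 and 869.5 units in HSC, against 193 and 392 in MPP and was 3.76-fold higher (log2 difference 1.91, SE 0.30, adjusted p = 0.00252). On the other probe set it had 411 and 388 units in HSC, against 89.9 and 132 in MPP (log2 difference 1.81, SE 0.23, adjusted p = 6.48e-04). Both probe sets thus put the HSC arrays above the MPP arrays by a similar margin. Gbp2 had 566 and 594 units in HSC, against 291 and 284 in MPP (log2 difference 1.00, SE 0.17, adjusted p = 0.00441). Its other probe set read 654 and 612 units in HSC, against 238 and 251 in MPP (log2 difference 1.35, SE 0.17, adjusted p = 8.13e-04), and on both the arrays of a group lay close together. Igtp, an IRG GTPase also called Irgm3, had 829.6 and 956 units in HSC, against 451 and 495 in MPP (log2 difference 0.91, SE 0.17, adjusted p = 0.00678). Gbp6 had 218 and 195 units in HSC, against 102 and 127 in MPP (log2 difference 0.83, SE 0.22, adjusted p = 0.0379). A second Gbp6 probe set was uncalled, with 265 and 125 units in HSC, against 86.0 and 105 in MPP (adjusted p = 0.111). The call of Gbp6 was lost when HSC replicate 1 was left out (0.75, adjusted p = 0.0724), and so it was for MPP replicate 1 (0.68, adjusted p = 0.252) and MPP replicate 2 (0.97, adjusted p = 0.0798) and after quantile normalization (0.76, adjusted p = 0.0655).

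Gbp3, Irgm1 and Ifi47 were not called, and their groups overlapped. Gbp3 had 581 and 438 units in HSC, against 262 and 469 in MPP (log2 difference 0.52, SE 0.26, adjusted p = 0.264). Irgm1, a regulator of the other IRG GTPases, had 475 and 289 units in HSC, against 281 and 293 in MPP (log2 difference 0.36, SE 0.24, adjusted p = 0.385), so that HSC replicate 1 stood above 3 arrays that were nearly level. Irgm1 was called when HSC replicate 2 was left out (0.72, adjusted p = 0.0345). Ifi47, a further IRG GTPase, had a log2 difference of 0.16. In RefSeq 1 protein-coding gene lies between Gbp3 and Gbp2 on chromosome 3, and Gbp2 was the one called of these 2.

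The interferon-induced transmembrane (IFITM) proteins sit in cell and endosome membranes and block virus entry. Their 3 genes follow each other on chromosome 7, in the order Ifitm2, Ifitm1, Ifitm3. HSC arrays were above MPP arrays for all 3, as they were for 35.3% of all genes. Ifitm1 had 5648 and 6668 units in HSC, against 2574 and 2454 in MPP and was 2.44-fold higher (log2 difference 1.29, SE 0.15, adjusted p = 4.54e-04). All 14 alternative settings called Ifitm1, the only member of which that held. Ifitm3, the member best known for restricting influenza virus, had 3658 and 3658 units in HSC, against 1587 and 1987 in MPP (log2 difference 1.04, SE 0.16, adjusted p = 0.0023). Its HSC arrays were level with each other, while the MPP arrays differed by 0.32 on the log2 scale, and its call ended without MPP replicate 1 (0.88, adjusted p = 0.0550). Ifitm2 had 859 and 678 units in HSC, against 387 and 586 in MPP and was not called (log2 difference 0.67, SE 0.22, adjusted p = 0.0817). It passed without HSC replicate 2 (0.84, adjusted p = 0.0290) and without MPP replicate 2 (0.97, adjusted p = 0.0435).

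Ifnar2, the chain of the type I receptor that binds interferon tightly, fell in HSC. It had 201 and 227 units in HSC, against 355 and 339 in MPP (log2 difference -0.69, adjusted p = 0.0426), with no overlap. A second probe set, with 81.5 and 105 units in HSC, against 220.2 and 218 in MPP, was also called (log2 difference -1.19, SE 0.22, adjusted p = 0.00711). The third had 71.8 and 65.1 units in HSC, against 114 and 143 in MPP and was not (log2 difference -0.85, adjusted p = 0.0545). The brightest probe set lost its call when HSC replicate 1 was left out (-0.60, adjusted p = 0.0706), and likewise for MPP replicate 1 (-0.66, adjusted p = 0.241) and MPP replicate 2 (-0.72, adjusted p = 0.195), with no filter on dim probe sets (adjusted p = 0.0650) and after quantile normalization (-0.68, adjusted p = 0.0581).

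No call was made for the other receptor chains. Ifnar1, the partner chain, had a log2 difference of -0.06 on its brightest probe set, and 0.73 on a dimmer one (adjusted p = 0.907 and 0.234). Ifngr1 and Ifngr2, the chains of the interferon gamma receptor, had 0.12 and -0.23. In RefSeq the genes Ifnar2, Il10rb, Ifnar1 and Ifngr2 follow each other on chromosome 16 with no other protein-coding gene between them. Il10rb, a receptor chain for interleukin 10 and interferon lambda, fell next to Ifnar2, with 207 and 230.5 units in HSC, against 415 and 396 in MPP (log2 difference -0.87, SE 0.18, adjusted p = 0.0128).

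Of the transcription regulators, Irf2 and Irf7 rose. Irf2, a repressor of type I interferon signalling on which resting HSC are known to depend, had 164 and 172 units in HSC, against 52.7 and 92.0 in MPP and was 2.29-fold higher (log2 difference 1.20, SE 0.28, adjusted p = 0.0208). The HSC arrays lay close together, and the MPP arrays were 0.74 apart on the log2 scale. Irf7, which amplifies the type I response, had 148 and 159 units in HSC, against 62.9 and 94.6 in MPP (log2 difference 0.94, SE 0.26, adjusted p = 0.0429). Its call ended without HSC replicate 2 (0.89, adjusted p = 0.0839) and after quantile normalization (0.82, adjusted p = 0.0798). Nlrc5, the activator of class I genes, had 357 and 395 units in HSC, against 176 and 284 in MPP and was not called (log2 difference 0.73, SE 0.24, adjusted p = 0.0775). Without MPP replicate 2 it passed the threshold (1.07, adjusted p = 0.0321). Irf9, which works with Stat2, had 395 and 385 units in HSC, against 247 and 293 in MPP (log2 difference 0.53, SE 0.19, adjusted p = 0.106). For Stat2 the log2 difference was 1.02 (adjusted p = 0.109), and HSC arrays were above MPP arrays for both genes. Irf1, an activator induced mainly by interferon gamma, was nearly level in the measurements, with a log2 difference of 0.09 (SE 0.17) and overlapping groups.

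Of the class I presentation genes, 4 had small positive differences and Tap1 a slightly negative one, none past the threshold, and 1 gene fell. Of 6 tested, none rose (against 7.71% of all genes) and 1 fell (16.7%, against 5.9%). At an unadjusted p under 0.05 in limma these counts were 2 and 1. The median log2 difference was 0.33. H2-K1, a classical class I heavy chain, had 4132 and 3649 units in HSC, against 2904 and 3206 in MPP (log2 difference 0.35, SE 0.15, adjusted p = 0.185). H2-D1, the other, had 3993 and 2793 units in HSC, against 2346 and 2400.4 in MPP (log2 difference 0.49, SE 0.18, adjusted p = 0.122). HSC arrays were above MPP arrays in both, and for H2-D1 the gap to HSC replicate 2 was the smaller one. B2m, the light chain that all class I molecules share, had a log2 difference of 0.31 and Tapbp, or tapasin, which helps load peptide, 0.40 (adjusted p = 0.213 and 0.208), again with the groups apart. B2m was called higher after quantile normalization (0.40, adjusted p = 0.0394). With the array medians made equal, B2m had 0.079, H2-K1 0.11 and H2-D1 0.26, none of them called. H2-D1 had 0.75 without HSC replicate 2 and 0.23 without HSC replicate 1. The class I heavy chains are so alike that probe sets whose names end in _x_at can bind several of them, and 11 of the 13 H2-K1 and H2-D1 probe sets are of that kind, so values of single heavy chains are uncertain.

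The peptide transporter split. Tap2, which encodes a chain of the pump that brings peptides into the endoplasmic reticulum, fell in HSC, with 179 and 141 units in HSC, against 357 and 288 in MPP (log2 difference -0.99, SE 0.22, adjusted p = 0.0151). Leaving out MPP replicate 1 ended this call (-0.83, adjusted p = 0.138). Tap1, its partner, had overlapping groups and a log2 difference of -0.04 (adjusted p = 0.916). Both genes lie on chromosome 17 in the row Psmb9, Tap1, Psmb8, Tap2, with no other protein-coding gene between them in RefSeq. Psmb8, a subunit of the immunoproteasome that cuts such peptides, fell as Tap2 did, with 435 and 271 units in HSC, against 702 and 695 in MPP (log2 difference -1.01, SE 0.22, adjusted p = 0.0157). Psmb9, another such subunit, had a log2 difference of -0.35 (adjusted p = 0.273).

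The 2 arrays of the MPP group differed in these genes. MPP replicate 2 was above MPP replicate 1 for 32 of 39 tested members (82.1%), against 47.8% of all tested genes, with a median difference of 0.32 on the log2 scale over the members and -0.02 over all genes. All 13 tested antiviral genes lay that way, with a median of 0.50. Between the HSC arrays no such lean was seen: replicate 2 was above replicate 1 for 17 of 39 members (43.6%), against 49.6% of all genes, with a median of -0.05. Mx1 and Usp18, named after their values were seen, moved most. Mx1, an antiviral GTPase whose gene is known to be defective in C57BL/6 mice, had 90.9 and 67.6 units in HSC, against 8.61 and 80.9 in MPP, where MPP replicate 1 was below the floor. Usp18 had 146 and 105 units in HSC, against 77.3 and 162 in MPP, so that the HSC arrays lay between the MPP arrays. Some markers of other cells lay the same way. MPP replicate 2 was above MPP replicate 1 in the summed macrophage and dendritic markers (1013 against 692 units) and in the summed plasmacytoid markers (1180 against 951). Csf1r (552 against 282) is part of the first sum and Tcf4 (993 against 743) of the second. Of 10 tested macrophage and dendritic markers 7 lay that way, and Adgre1 (29.7 against 50.3) was among the others. Of 4 tested plasmacytoid markers 2 lay that way, and Klk1 (102 against 142) was among the others. The sums of T, B and NK (382 against 429), endothelial (147 against 159) and erythroid markers (69.0 against 76.8) lay the other way. Irf8, a factor of monocyte and dendritic cell fate, had 635 units on MPP replicate 2 and 349 on MPP replicate 1. Their part in the lean was not tested. Ifitm1, Gbp2, Stat2, Ifnar2 and Tap2 were among the 7 members for which MPP replicate 2 was not above replicate 1.

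**Figure D4:**
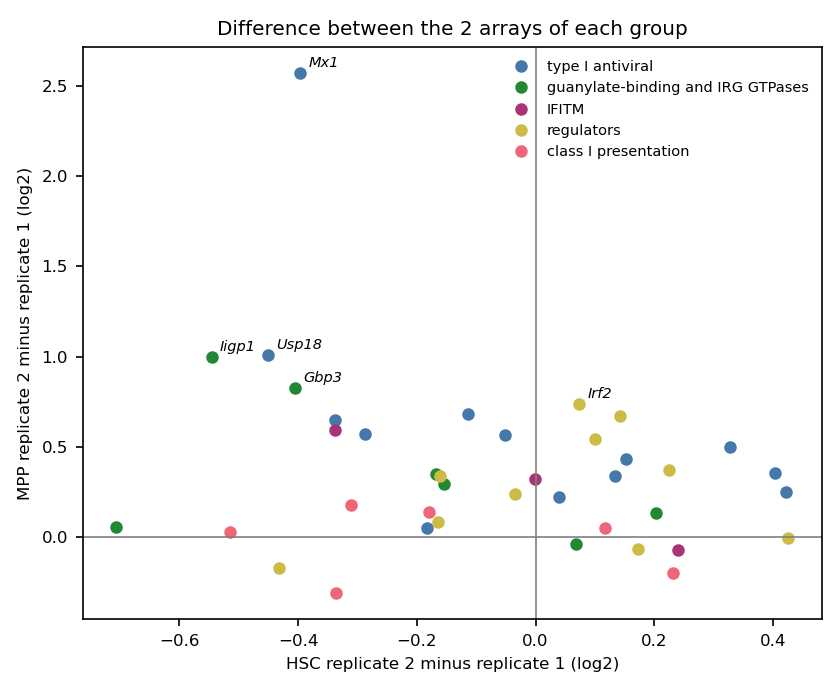
For each tested member, the log2 difference between the 2 MPP arrays (vertical axis) against that between the 2 HSC arrays (horizontal axis), replicate 2 minus replicate 1 in both, coloured by group. Of 39 points 32 lie above 0 on the vertical axis, with Mx1 at 2.57, while 17 lie right of 0 on the horizontal axis.

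Other genes of the pathway were compared in the same fit. Their lists, of known members, were also chosen with earlier results of these data known. Of 31 other interferon-induced genes, 7 rose in HSC (22.6%, against 7.71% of all genes) and 1 fell (3.23%, against 5.9%). The median log2 difference was 0.32. The genes that rose were Ifih1, the RNA sensor MDA5 (0.99), Parp12 (0.88), the nuclear body gene Pml (1.07), the nucleotide-cleaving restriction factor Samhd1 (0.88), the GTPase genes Gbp7 (0.63) and Irgm2 (1.24), and Cd274, which encodes PD-L1 (1.13). Irgm2 lies next to Igtp on chromosome 11 and had 668 and 543 units in HSC, against 226 and 281 in MPP. Ifi27 fell (log2 difference -0.91), with 694 and 648 units in HSC, against 1153 and 1390.3 in MPP. Their adjusted p lay between 0.00246 and 0.0449. Cmpk2, the gene next to Rsad2 on chromosome 12, had 0.76 and was not called (adjusted p = 0.0848).

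Of 16 other interferon signalling and sensing genes, 1 rose (6.25%, against 7.71% of all genes) and 4 fell (25%, against 5.9%). The median log2 difference was 0.12. Jak2, a kinase of the interferon gamma receptor and of the thrombopoietin receptor, rose (0.89, adjusted p = 0.00592). Irf8 fell most. It had 50.1 and 20.5 units in HSC, against 349 and 635 in MPP (log2 difference -3.63, SE 0.37, adjusted p = 1.98e-04). Cgas, the sensor of DNA in the cytosol, and Sting1, through which it signals, both fell (log2 differences -0.87 and -0.77, adjusted p = 0.0182 and 0.0273), as did Il10rb. Cgas had 312 and 434 units in HSC, against 690.2 and 662 in MPP, with the groups apart. The RNA-sensing adaptor Mavs had 0.34 and the kinase Tbk1 0.16, neither called.

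Among 9 genes of peptide supply and loading for class I, none rose (against 7.71% of all genes) and 1, Psmb8, fell (11.1%, against 5.9%). At an unadjusted p under 0.05 in limma these counts were none and 2. The median log2 difference was -0.35, where that of all tested genes was 0.10. Of the 9, 8 were negative, among them the chaperone gene Calr (-0.51, adjusted p = 0.103). Of 7 other class I and class I-like genes, 1 rose (14.3%, against 7.71% of all genes) and none fell (against 5.9%). At an unadjusted p under 0.05 in limma these counts were 3 and none. The gene that rose was Fcgrt, the receptor that recycles antibody, with 201 and 170.1 units in HSC, against 67.1 and 37.3 in MPP (log2 difference 1.76, SE 0.29, adjusted p = 0.00343). Cd1d1, which shows lipids to T cells, had 0.56 and was not called. Probe sets of 6 interferon genes (Ifna1, Ifna2, Ifna4, Ifna5, Ifnb1 and Ifng) were all too dim to be tested. Of these, Ifna1 read above the floor on HSC replicate 2 and MPP replicate 2 and Ifnb1 on HSC replicate 2. Over all 63 pathway genes 9 rose (14.3%, against 7.71% of all genes) and 6 fell (9.52%, against 5.9%). Without MPP replicate 1 these counts were 4 (6.35%, against 5.25% of all genes) and 2 (3.17%, against 3.01%), near the shares of all genes.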

How the data were processed

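All 4 arrays, 2 per group, were analysed from the deposited probe set intensity values, which are on a linear scale. No label or header names the software behind them. They carry a common scaling: with 2% of values trimmed at either end, every array as deposited averaged 100.001 units. No detection calls were used. Gene names came from the platform annotation, updated through gene identifiers to RefSeq (assembly GRCm38.p6).

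The pseudocount was 6.01 units, 0.25 of the overall median, added before taking log2. Array medians differed by at most 0.271 log2 units, and with a limit of 0.5 no further normalization was applied. After removal of 64 controls and of the dimmest 40% of probe sets, 27022 probe sets entered the tests, among them 60 of the members' 70. HSC and MPP were compared with limma 3.58.1 (R 4.3.3), using a moderated 2-sided test whose prior variance follows the mean level, no covariates, and Benjamini-Hochberg adjustment over all tested probe sets. Degrees of freedom were 2 (residual) and 8.48 (prior). On simulated arrays of 27022 probe sets, it recovered 81 of 100 changes of 2 log2 units and 8 of 100 changes of 1, with 3 of 92 calls on unchanged probe sets. No other probe sets were changed there, while 1611 were called higher and 1257 lower in the data. The adjusted threshold is stricter where few probe sets change, so these rates do not carry over to the data. Differences were taken after adding the pseudocount, so those of dim genes are understated. The number of arrays, 4, bounds the precision.

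Values on every array are given for members with a called probe set and for the 2 of each group with the smallest p among the rest. Called genes of the pathway lists are named. The labels do not say whether equal replicate numbers pair the samples. The differences between replicates 1 and 2 of both groups had a correlation of 0.03 across probe sets, which cannot decide this. The members and lists were chosen with earlier results of these data known. Alternatives were the scaling, the pseudocount, the filter on dim probe sets, the prior variance, the choice of probe sets, a replicate block and leaving out each array.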

Additional observations from a re-analysis of the deposited data

How the results depend on the processing

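Of 534 recomputed log2 differences of single members, 450 kept their direction and their side of the threshold, 48 lost and 11 gained a call, and 25 changed sign, none of these for a called member. As reported, 12 members were higher and 2 lower in HSC, with a median log2 difference of 0.49, and 9 pathway genes were higher and 6 lower. Both other pseudocounts and leaving out the lowest 60% by mean level kept the 12 and 2 members. Of all genes 7.41% to 9.98% were then higher and 5.72% to 8.49% lower. Equal array medians gave 6 members higher (15.4%, against 5.01% of all genes) and 2 lower (against 10.9%). The members' median was then 0.26, where the median of all genes also moved down (-0.14, against 0.10 as reported). Quantile normalization gave 10 members higher (25.6%, against 6.70% of all genes) and 1 lower (against 5.56%). No filter gave 6 higher (15%, against 3.16% of all genes) and 1 lower (against 2.65%). Without the trend in the prior variance limma called 1 member higher and none (0) lower (13 and 2 at an unadjusted p under 0.05), and none (0) of the pathway genes higher and 1 lower (15 and 6 unadjusted). Of all genes 3.07% were then higher and 1.87% lower. Leaving out probe sets ending in _x_at, _s_at or _a_at removed both called lower members and 3 of the 12 called higher ones from the test. Of 28 members tested, 9 were then higher (32.1%, against 7.44% of all genes) and 0 lower (against 5.65%). At an unadjusted p under 0.05 in limma 0 were lower. This setting left 3 pathway genes lower (5.77%, against 5.65% of all genes). With the replicate block, 15 members and 15 pathway genes were higher, the 15 members including the 12 as reported, and 2 members lower. Of all genes 11.4% were then higher, against 38.5% of the members and 23.8% of the pathway genes. The share of all genes that were lower was 8.21%. Whether the numbers pair samples is not known, so this fit serves only as a check. Leaving out 1 array at a time gave 3 to 13 members higher, 0 to 2 lower, a median of 0.33 to 0.64, 4 to 11 pathway genes higher and 1 to 7 lower, the fewest higher without MPP replicate 1. An arm of 1 array is then assumed to vary like the other group. Why these counts moved was not tested.

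With equal medians every member's difference moved by -0.23, so that the sign changes there, 7 of the 25, follow from the scaling. They were those of Ifi35 (-0.15), Ifi47 (-0.077), Ifngr1 (-0.12), Irf1 (-0.14), Oas2 (-0.030), Rtp4 (-0.17) and Usp18 (-0.10). Quantile normalization gave Tap1 0.018. Averaging a gene's probe sets gave the opposite sign for Ifi35 (-0.020), Ifnar1 (0.34) and Tapbp (-0.14). Tapbp had 0.40 as reported. Leaving out 1 array gave ranges across 0 for Ifi35 (-0.12 to 0.28), Ifi47 (-0.019 to 0.33), Ifngr1 (-0.055 to 0.29), Mx1 (-0.041 to 2.53), Oas2 (-0.013 to 0.42), Rtp4 (-0.26 to 0.39), Usp18 (-0.37 to 0.64), Ifnar1 (-0.25 to 0.13) and Tap1 (-0.20 to 0.11). Of these Mx1, at 1.24 as reported, was far from 0.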
